A study of Mus musculus with 13 samples.

Results

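Adam10, Adam22 and Adam23 code for 3 membrane proteins of the ADAM family (a disintegrin and metalloproteinase) that act at neuronal synapses. Their tags were examined in a map of the sites that Argonaute (AGO), the protein that carries microRNAs (miRNAs), contacts on RNA in mouse cortex shortly after an experimental stroke. The members were the peaks of the deposited table whose gene column read Adam10, Adam22 or Adam23. This gave 19 of 18284 peaks and 3 of 4652 gene names. Adam10 had 4 peaks, Adam22 had 7 and Adam23 had 8. The 3 genes were chosen by name with earlier results of these data known, so their fitted values and p-values are descriptions and support nothing by themselves.

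The cortices came from C57BL6 mice aged 7 to 8 weeks. Ipsilateral libraries (5) came from the hemisphere on the side of a middle cerebral artery occlusion (MCAO), in which a filament blocked the artery for 35 min and the mice recovered for 3 h. Contralateral libraries (4) came from the opposite hemisphere of MCAO mice. Sham libraries (4) came from mice that were anesthetized and had the arteries exposed with no filament. All were dissected cortex that was irradiated with ultraviolet light, so every cell type of the cortex could contribute, and no group carried a transgene or deletion. AGO was immunoprecipitated and the crosslinked fragments were sequenced. The comparisons ask whether AGO occupied the 3 transcripts to a different degree in ipsilateral cortex than in contralateral and sham cortex, and in contralateral than in sham cortex. A tag count depends on the amount of a transcript and on how much of it AGO holds, and these cannot be told apart here. In bulk tissue, fewer cells of a type and less RNA per cell cannot be told apart either. Replicate numbers mark the day of surgery, and whether samples with one number share an animal is not given in the sources used here.

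ADAM10 is an active membrane protease. It cuts the ectodomain of the amyloid precursor protein as the main alpha-secretase of neurons, and also sheds Notch receptors, N-cadherin and the prion protein. ADAM22 and ADAM23 lack a working protease site. Both are neuronal receptors for the secreted protein LGI1. ADAM22 sits with scaffold proteins of the postsynaptic density and with voltage-gated potassium channels, ADAM23 is placed mainly on the presynaptic side, and mice that lack Lgi1, Adam22 or Adam23 have seizures. A miRNA held by AGO pairs mostly through its seed, bases 2 to 8, with sites that lie for the greater part in 3'UTRs.

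The miRNA seed matches under the 2 peaks with the most tags in each gene are shown first, because the results below turn on these peaks. Each line is 30 bases of the transcript strand, 5' to 3', in the mm10 build, with the matching bases in capitals, read from GENCODE M21 transcripts. A site was a match to miRNA bases 2 to 8, or to bases 2 to 7 followed by A, and was searched on the transcript strand only.
Adam22 at chr5:8077976-8078005 (minus strand), miR-182-5p: taagtgtatttTTGCCAAAtgcctacagtc
Adam22 at chr5:8078427-8078456 (minus strand), miR-142a-3p: actggaatgtcACACTACAacatggaatca
Adam23 at chr1:63595807-63595836 (plus strand), miR-153-3p: ttttttttttaCTATGCAAagatgggaaat
Adam23 at chr1:63593908-63593937 (plus strand), miR-23a-3p: tccctgtcgtaAATGTGAAaggaggagaaa
Adam10 at chr9:70779572-70779601 (plus strand), miR-23a-3p: caatcactcacAATGTGAcgcgagccagca
Adam10 at chr9:70779554-70779583 (plus strand), miR-30a-5p: aagagtctaagGTTTACAcaatcactcaca
Adam10 at chr9:70779241-70779270 (plus strand), miR-205-5p: ttttagcaacaATGAAGGtagacagcacag

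All 7 windows lie in 3'UTRs. The 4 windows of Adam22 and Adam23 hold 8-base matches, in which pairing to bases 2 to 8 is followed by A. The miR-23a-3p and miR-205-5p windows of Adam10 match bases 2 to 8, and its miR-30a-5p window matches bases 2 to 7 followed by A. In the same Adam10 peak, a match of this shorter kind for miR-219a-5p overlaps the miR-30a-5p match by 1 base. In the miR-182-5p window of Adam22, the last bases of the match (TGCCAAA) are also a match for miR-96-5p. The mature miRNAs, from RefSeq (GRCm38.p6) with the seed in capitals, show how these pair.
miR-182-5p: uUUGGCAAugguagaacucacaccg
miR-96-5p: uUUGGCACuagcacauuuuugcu
miR-142a-3p: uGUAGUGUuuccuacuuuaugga
miR-153-3p: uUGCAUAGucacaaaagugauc
miR-23a-3p: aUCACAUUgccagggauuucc
miR-30a-5p: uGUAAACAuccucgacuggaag
miR-205-5p: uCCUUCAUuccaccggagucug

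The libraries were shallow and uneven. Tags in exonic peaks (3'UTR, coding sequence or 5'UTR) numbered 2592 to 25652 per library, and 28.9% to 68.6% of a library's peak tags were exonic. The lowest exonic share was that of ipsilateral replicate 1, and all 3 libraries of replicate 1 were at or below 39.0%. Values of a gene are therefore given as tags per 10000 exonic tags of the library. Of the exonic peaks, 64.3% lay in 3'UTRs. Markers of neurons (9 of 12 genes with tags) summed to 186 to 362 tags per 10000 in ipsilateral, 314 to 384 in contralateral and 299 to 348 in sham libraries. Markers of astrocytes (7 of 8) summed to 145 to 243, 191 to 271 and 168 to 231, and markers of the oligodendrocyte lineage (5 of 9) to 11.6 to 49.4, 42.9 to 67.0 and 42.9 to 58.0 in the same order. Microglial (1 of 7 genes), vascular (2 of 6) and blood markers (1 of 5) had at most 27 tags per list in all libraries together. The lowest neuronal, astrocyte and oligodendrocyte sums were all in ipsilateral libraries, and their part in the results was not tested. Those of neurons and astrocytes were in ipsilateral replicate 1, the library with the lowest exonic share. That of the oligodendrocyte lineage was 3 tags in ipsilateral replicate 5, the library with 2592 exonic tags.

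The 3 genes were among the better covered of the 3276 genes with exonic tags, whose median was 19 tags. Adam23 had 344 tags (rank 81), Adam22 had 192 (rank 200) and Adam10 had 102 (rank 409). Per kilobase of 3'UTR the order was different. Adam23 averaged 4.75 ± 2.66 tags per 10000 per kb in ipsilateral (SD, n = 5), 4.64 ± 1.32 in contralateral (n = 4) and 6.20 ± 0.640 in sham cortex (n = 4), over 3.62 kb. Adam10 averaged 2.14 ± 1.51, 2.79 ± 1.99 and 2.49 ± 1.23 over 2.135 kb, and Adam22 averaged 1.90 ± 0.833, 1.84 ± 0.589 and 1.10 ± 0.542 over 6.334 kb, with the groups in the same order. Over these lengths, Adam23 was the most densely tagged in each group. Adam22 lay within 1 SD of the Adam10 mean in ipsilateral and contralateral cortex and below that in sham cortex. An annotated Adam22 transcript with a 3'UTR of 847 bases also covers its peaks with the most tags. The Adam22 density therefore depends on the length taken.

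**Figure D1:**
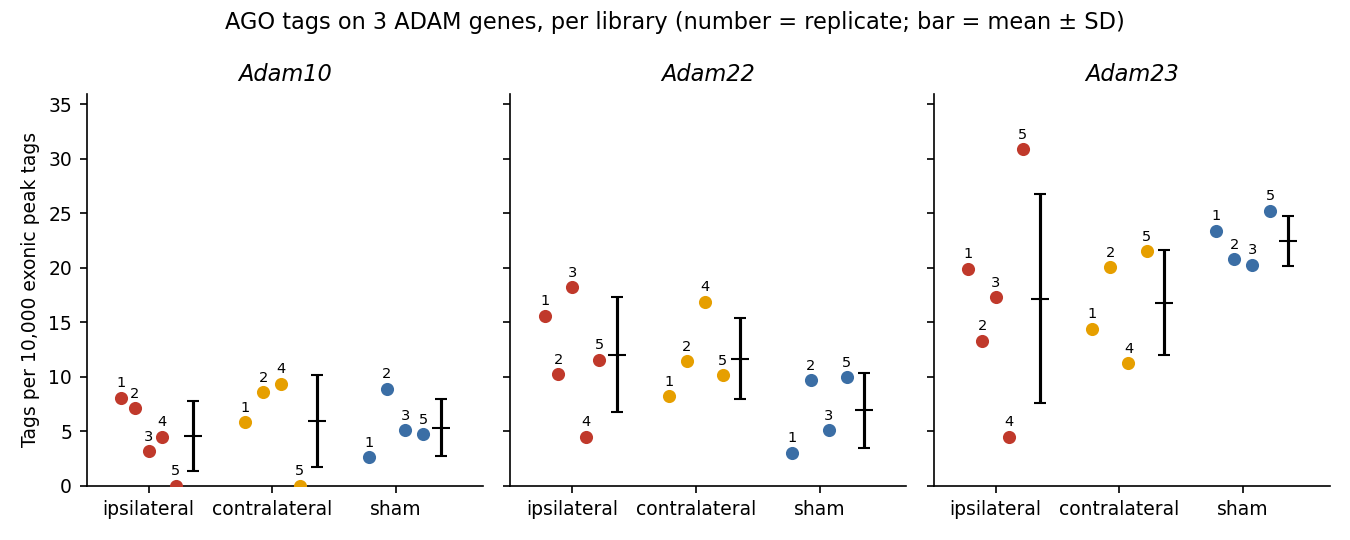
Tags of each gene per 10000 exonic peak tags of the library (vertical axis), for ipsilateral, contralateral and sham libraries (horizontal axis). Each point is 1 library with its replicate number, and the bar gives mean ± SD. Adam22 lies between 4.49 and 18.2 in ipsilateral, 8.19 and 16.9 in contralateral and 3.03 and 9.98 in sham libraries. The 4 sham libraries of Adam23 lie close together between 20.3 and 25.2.

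Adam22, the postsynaptic LGI1 receptor, had 15.6, 10.2, 18.2, 4.49 and 11.6 tags per 10000 exonic tags in ipsilateral replicates 1 to 5. It had 8.19, 11.4, 16.9 and 10.1 in contralateral replicates 1, 2, 4 and 5, and 3.03, 9.66, 5.07 and 9.98 in sham replicates 1, 2, 3 and 5. All ipsilateral libraries except replicate 4, which held 2 Adam22 tags, were above the highest sham library. Ipsilateral replicate 5, at 11.6, held 3 tags. The contralateral libraries spanned the upper sham and the ipsilateral values, so the groups overlap.

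In edgeR's quasi-likelihood test over exonic gene sums, the log2 fold change of Adam22 was 0.92 ± 0.40 (SE) in ipsilateral against sham cortex, with a 95% interval of 0.14 to 1.70, an unadjusted p of 0.0328 and a Benjamini-Hochberg adjusted p of 0.488 over the 414 genes tested. In this comparison 38 of the genes had an unadjusted p under 0.05 in edgeR, and Adam22 ranked 27 by p. Adam22 was not called at an adjusted p under 0.05, and neither were Adam10 and Adam23: 0 of 3 members, against 0.483% of all genes tested (2, Hspa1b and Cnksr2). With the day of surgery as a block, 1.21% (5) of the genes were called and again 0 of the 3 members. The exact two-sided permutation test of the shares gave a difference of 5.08 tags per 10000 and p = 0.119, where the smallest p that 126 assignments allow is 0.00794. Within days of surgery, Adam22 was higher in the ipsilateral than in the sham library in 4 of 4 shared replicate numbers, and the exact sign-flip p of 0.125 is the smallest that 4 pairs allow. Without ipsilateral replicate 4, the ipsilateral library that was not above the sham libraries, the difference was 6.97 tags per 10000. The ipsilateral libraries left then all lie above the sham libraries. The exact permutation p therefore had to be 0.0286, the smallest that 4 against 4 libraries allow, and it adds no support. Without the 3 libraries of replicate 1 the difference was smaller, at 2.89 (exact permutation p = 0.429), and the log2 fold change was 0.47. Per 10000 peak tags of all kinds, a larger denominator, it was 2.76 (exact permutation p = 0.214).

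Between ipsilateral and contralateral cortex, the log2 fold change of Adam22 was 0.29 ± 0.39 (adjusted p = 0.783 in edgeR, 95% interval −0.47 to 1.05), and 2 of 4 pairs were higher on the ipsilateral side. Between contralateral and sham cortex it was 0.63 ± 0.43 (adjusted p = 1.00 in edgeR, interval −0.20 to 1.47), with 3 of 3 pairs higher on the contralateral side. The exact permutation p of the shares was 0.881 for the first and 0.143 for the second. The first log2 value was 0.15 without ipsilateral replicate 1, 0.11 without ipsilateral replicate 3, 0.12 without contralateral replicate 1 and 0.019 without all 3 libraries of replicate 1. The second was 0.40 without sham replicate 1. No gene was called in either of these comparisons (0% of 414 in each). At an unadjusted p under 0.05, edgeR had 53 genes in ipsilateral against contralateral and 5 in contralateral against sham cortex. DESeq2 called 6 and 0 genes, and the fit with the day of surgery as a block called 5 (1.21%) and 0, with 0 of the 3 members in each. Every comparison shares a group with another, so the values of a gene in the 3 comparisons are not independent.

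Adam23, the presynaptic LGI1 receptor, had 19.9, 13.3, 17.3, 4.49 and 30.9 tags per 10000 in ipsilateral replicates 1 to 5. It had 14.4, 20.0, 11.3 and 21.5 in contralateral replicates 1, 2, 4 and 5, and 23.4, 20.8, 20.3 and 25.2 in sham replicates 1, 2, 3 and 5. The sham libraries were the most alike (22.4 ± 2.32, SD, n = 4), the ipsilateral libraries the least (17.2 ± 9.62, n = 5), and the contralateral libraries averaged 16.8 ± 4.80 (n = 4). Ipsilateral replicates 4 and 5, the lowest and the highest of all libraries, held only 2 and 8 Adam23 tags. Apart from replicate 5, every ipsilateral library was below the lowest sham library, and among the contralateral libraries replicate 5 alone was within the sham range.

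The log2 fold change of Adam23 was −0.46 ± 0.32 in ipsilateral against sham cortex (edgeR adjusted p = 0.620, 95% interval −1.09 to 0.16). It was −0.47 ± 0.34 in contralateral against sham cortex (edgeR adjusted p = 1.00, interval −1.13 to 0.19). Between ipsilateral and contralateral cortex it was 0.01 ± 0.33 (edgeR adjusted p = 0.998). With the day of surgery as a block, the values were smaller, at −0.32 ± 0.27 in ipsilateral against sham cortex (edgeR adjusted p = 0.678). In contralateral against sham cortex the blocked value was −0.32 ± 0.29 (edgeR adjusted p = 0.969). The mean share differed by −5.26 tags per 10000 between ipsilateral and sham cortex (exact permutation p = 0.333) and by −5.63 between contralateral and sham cortex (exact permutation p = 0.114). In both, leaving out the 1 library of the group that was not below every sham library moved the p below 0.05. Without ipsilateral replicate 5 the first was −8.68, and without contralateral replicate 5 the second was −7.20. The libraries left then all lie below the sham libraries. Each exact permutation p therefore had to be 0.0286, the smallest those group sizes allow, and it adds no support. In pairs of one day, Adam23 was higher in the ipsilateral library in 1 of 4 pairs and in the contralateral library in 0 of 3, each against sham. The exact sign-flip p was 0.5 and 0.25 in that order, where the smallest possible were 0.125 and 0.25. Without ipsilateral replicate 4, ipsilateral against sham cortex gave −2.09 (exact permutation p = 0.571) and a log2 fold change of −0.28. The denominator moved both differences. Over 3'UTR peaks and 3'UTR tags they were −10.4 in ipsilateral against sham (exact permutation p = 0.167) and −8.92 in contralateral against sham cortex (exact permutation p = 0.0286). Per 10000 peak tags of all kinds they were −1.47 (exact permutation p = 0.722) and −1.58 (exact permutation p = 0.6) in the same order.

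Adam10, the protease of the group, had 8.07, 7.11, 3.19, 4.49 and 0 tags per 10000 in ipsilateral replicates 1 to 5. It had 5.85, 8.59, 9.38 and 0 in contralateral replicates 1, 2, 4 and 5, and 2.60, 8.92, 5.07 and 4.70 in sham replicates 1, 2, 3 and 5. The groups overlapped over most of their range. The 0 of ipsilateral replicate 5 allows up to 11.6 tags per 10000 and that of contralateral replicate 5 up to 3.79, taking 3 tags as the limit, so ipsilateral replicate 5 says little about Adam10. Its log2 fold change was 0.11 ± 0.59 in ipsilateral against sham, −0.07 ± 0.61 in ipsilateral against contralateral and 0.18 ± 0.63 in contralateral against sham cortex, with edgeR adjusted p-values of 0.983, 0.994 and 1.00. In ipsilateral against sham cortex the 95% interval ran from −1.06 to 1.27, so a change of 2-fold either way lay inside it. The exact permutation p-values of the shares, in the same order of comparisons, were 0.714, 0.595 and 0.8. Over the 9 comparisons of 3 genes, none of these permutation p-values was adjusted.

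**Figure D2:**
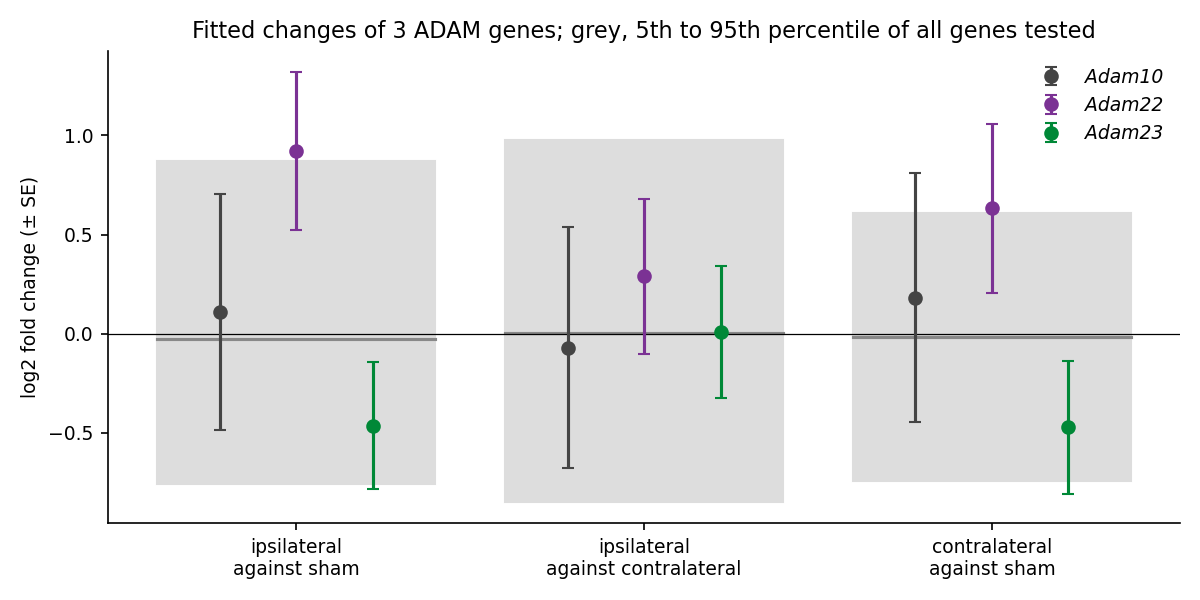
Fitted log2 fold change ± SE (vertical axis) of Adam10, Adam22 and Adam23 in the 3 comparisons (horizontal axis). The grey band is the 5th to 95th percentile and the grey line the median of the 414 genes tested. Adam22 lies just above the upper edge of the band in ipsilateral against sham cortex (0.92 against 0.87) and in contralateral against sham cortex (0.63 against 0.61), and Adam10 and Adam23 lie inside it throughout.

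The peaks were spread over the 3'UTRs in a different way in each gene. Of the 19 peaks, 16 were labelled 3'UTR, 2 of Adam22 spanned the end of the coding sequence and the 3'UTR, and 1 of Adam10 was intronic (chr9:70688705-70688784). Adam10 had its 3 exonic peaks in the later part of the 3'UTR, with centres 1155, 1479 and 1894 bases after the stop codon of a 2135-base 3'UTR. Adam22 had 5 peaks towards the stop codon, with centres at 54, 208, 683, 1517 and 2231 bases, and 1 peak far downstream at 5442 of 6334 bases. Its remaining peak crosses the junction to the last exon and was not placed. The Adam23 peaks lay at 421, 509, 1065, 1265, 1315, 1941, 2841 and 3168 of 3620 bases. Most transcripts annotated for Adam22 that reach these peaks share the same 3'UTR of 6334 bases, and both full-length Adam23 transcripts share the one of 3620 bases. Overlapping peaks (Adam22 at 54 bases and across the junction, Adam23 at 1265 and 1315) can count a tag more than once in a gene sum.

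**Figure D3:**
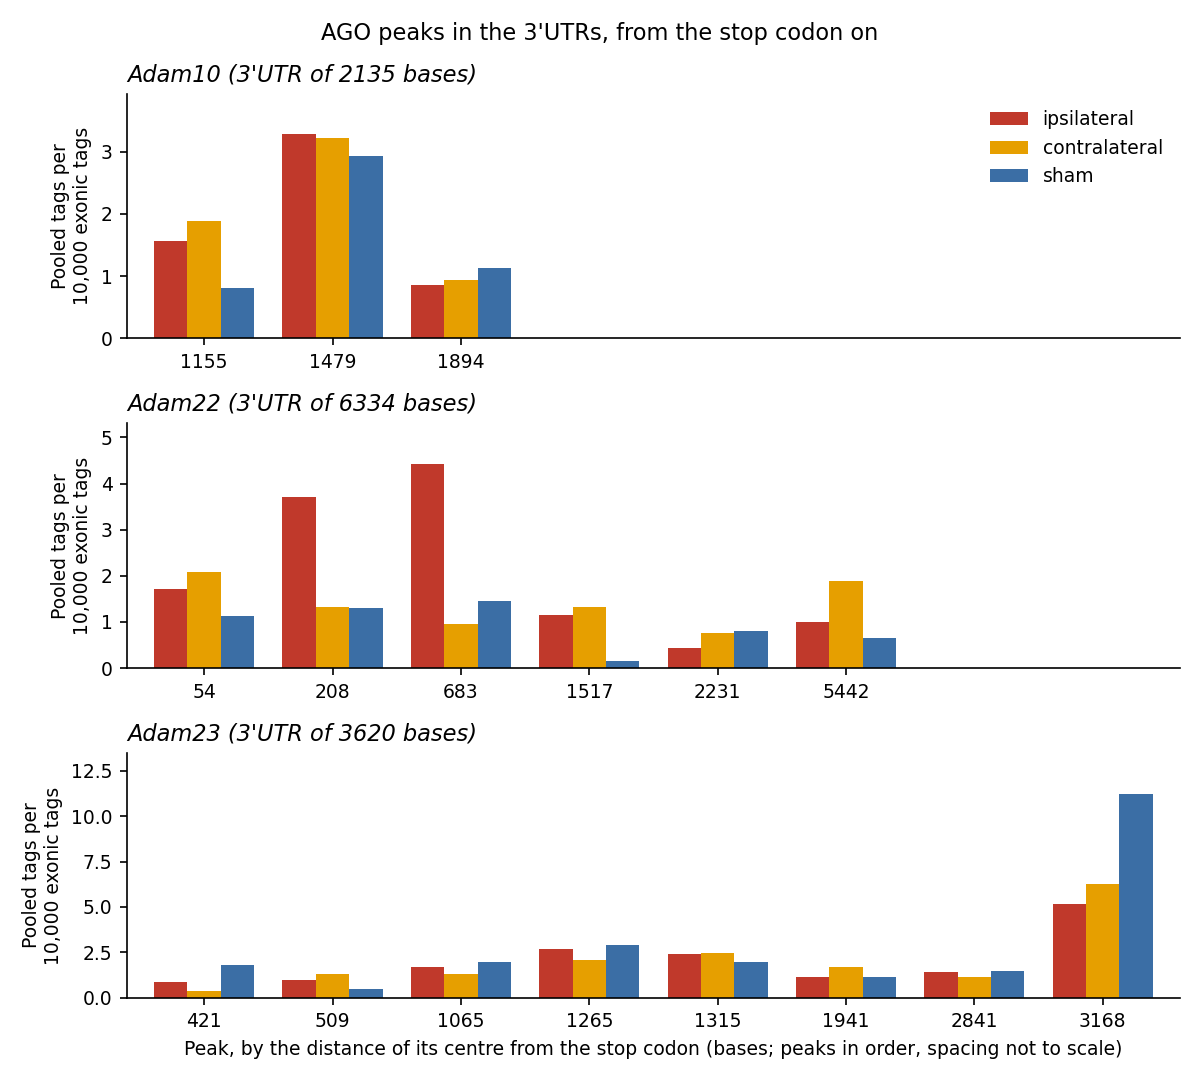
Tags of each placed 3'UTR peak, pooled over the libraries of a group, per 10000 pooled exonic tags (vertical axis), with peaks in order of their distance from the stop codon in bases (horizontal axis, not to scale). Bars have no error because tags are pooled within groups. The Adam22 peaks at 208 and 683 bases are tallest in ipsilateral cortex, and the Adam23 peak at 3168 bases is tallest in sham cortex with 11.2, against 5.14 in ipsilateral and 6.24 in contralateral cortex.

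In Adam22, 2 peaks held most of the ipsilateral tags. The peak at 683 bases (chr5:8077963-8078042, with the miR-182-5p match) had 7, 6, 17, 1 and 0 tags in ipsilateral replicates 1 to 5, against 3, 1, 1 and 0 in contralateral replicates 1, 2, 4 and 5 and 2, 3, 2 and 2 in sham replicates 1, 2, 3 and 5. The peak at 208 bases (chr5:8078438-8078517) has the miR-142a-3p match at its downstream edge. This peak had 8, 10, 7, 1 and 0 ipsilateral tags, against 2, 4, 1 and 0 contralateral and 4, 0, 2 and 2 sham tags. Together they held 57 of 97 Adam22 tags (58.8%) in ipsilateral, 12 of 54 (22.2%) in contralateral and 17 of 41 (41.5%) in sham cortex. These peaks were picked out as the 2 with the most tags over all libraries, and most of those tags were ipsilateral. The peak at 54 bases had 11 contralateral and 7 sham tags. The peak at 683 bases had 5 and 9 in the same order, and that at 208 bases had 7 and 8. Without the ipsilateral libraries these 2 peaks would not rank first, so the choice builds in part of the contrast. The contrast was also seen before it was described, so no test was made of it.

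Per 10000 exonic tags, the 2 Adam22 peaks together had 8.07, 7.11, 10.9, 4.49 and 0 in ipsilateral replicates 1 to 5, against 1.95, 3.58, 3.75 and 0 in contralateral and 2.60, 2.23, 5.07 and 2.35 in sham libraries. Ipsilateral replicates 1, 2 and 3, the deepest of that group, were above every contralateral and sham library, and replicates 4 and 5 held 2 and 0 tags there. The other Adam22 peaks had another order, with 5.90 ± 4.45 in ipsilateral (SD, n = 5), 9.34 ± 2.99 in contralateral (n = 4) and 3.87 ± 4.23 in sham cortex (n = 4). The share of Adam22 tags in the 2 peaks was uneven among sham libraries too: 6 of 7 in replicate 1 and 4 of 4 in replicate 3, but 3 of 13 in replicate 2 and 4 of 17 in replicate 5. Both peaks were below the count filter when single peaks were tested.

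In Adam23, 1 peak near the end of the 3'UTR stood out, and it carries the miR-153-3p match. This peak (chr1:63595785-63595864, 3168 bases after the stop codon) held 138 tags, 40.1% of the gene's exonic tags, and the authors' peak height of 135 was the highest of all member peaks. It had 4, 13, 19, 0 and 0 tags in ipsilateral replicates 1 to 5, against 15, 17, 0 and 1 in contralateral replicates 1, 2, 4 and 5 and 19, 22, 4 and 24 in sham replicates 1, 2, 3 and 5. Per 10000 exonic tags it averaged 3.32 ± 3.80 in ipsilateral (SD, n = 5), 4.82 ± 5.50 in contralateral (n = 4) and 10.9 ± 5.19 in sham cortex (n = 4). The ranges overlap: 0 to 8.65, 0 to 12.2 and 5.07 to 16.3. The other 7 peaks together ran from 4.49 to 30.9 in ipsilateral, 7.87 to 20.2 in contralateral and 4.46 to 15.2 in sham libraries, again with overlap, and their pooled levels were 11.3, 10.4 and 11.7 tags per 10000 in that order.

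It was the single member peak that passed the filter for a test of single peaks (238 peaks tested). There its log2 fold change was −1.54 ± 1.00 in ipsilateral against sham (edgeR adjusted p = 0.996), −0.06 ± 1.04 in ipsilateral against contralateral (edgeR adjusted p = 0.981) and −1.47 ± 1.07 in contralateral against sham cortex (edgeR adjusted p = 1.00). No peak was called in any of the 3 comparisons (0% in each), and 5, 5 and 1 peaks were at an unadjusted p under 0.05 in edgeR. None of the 3 differences exceeded 2 of its own SE. The median log2 fold change of all 238 peaks tested was −0.11, 0.35 and −0.35 in the same order of comparisons.

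**Figure D4:**
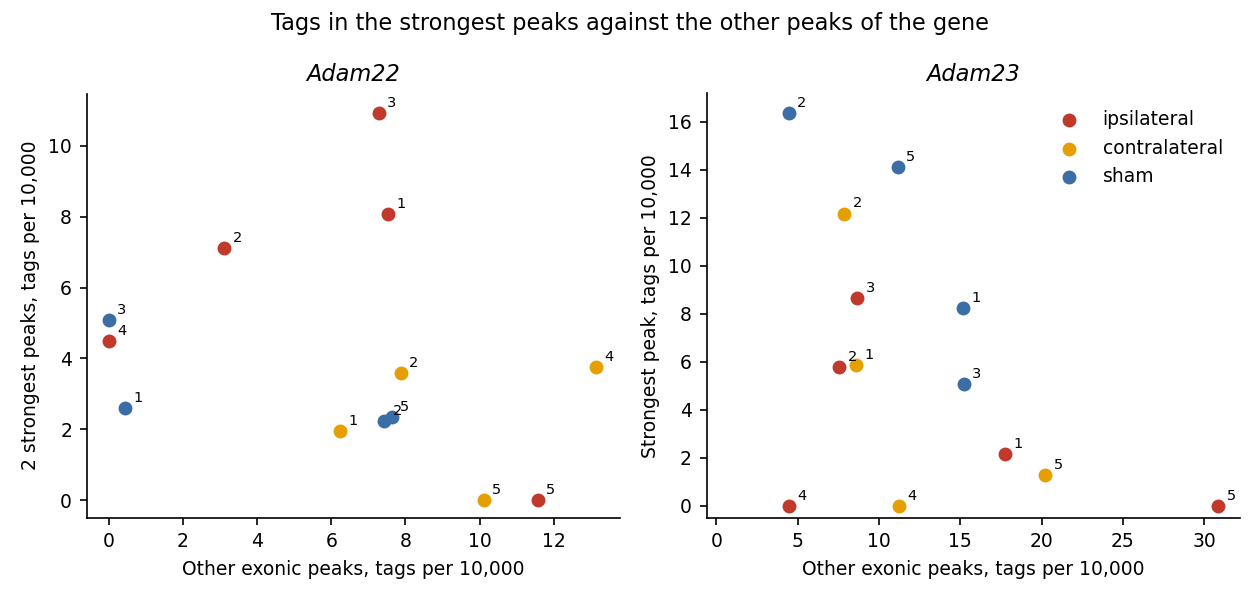
Tags per 10000 exonic tags in the peak or peaks with most tags (vertical axes) against the other exonic peaks of the same gene (horizontal axes), for Adam22 (left, peaks at 208 and 683 bases) and Adam23 (right, peak at 3168 bases). Each point is 1 library, with its replicate number and the colour of its group. Ipsilateral replicates 1, 2 and 3 lie highest for Adam22, at 7.11 to 10.9, and sham replicates 2 and 5 lie highest for Adam23. The Adam22 peaks were picked by tags over all libraries, most of them ipsilateral, which builds in part of this order.

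In Adam10, 1 peak (chr9:70779534-70779613, 1479 bases after the stop codon, with the miR-23a-3p and miR-30a-5p matches) held 58 of the 102 exonic tags. It had 11, 9, 1, 2 and 0 tags in ipsilateral replicates 1 to 5, against 7, 6, 4 and 0 in contralateral and 3, 7, 4 and 4 in sham libraries. Its share of the gene's tags was 57.5% in ipsilateral, 53.1% in contralateral and 60.0% in sham cortex. Over libraries it averaged 2.97 tags per 10000 in ipsilateral (range 0 to 5.92, n = 5), 3.63 in contralateral (0 to 7.50, n = 4) and 3.48 in sham cortex (1.30 to 5.20, n = 4), and pooled, which weights the deep libraries, 3.28, 3.22 and 2.93. Mean and pooled level differ in the order of the groups, and the ranges overlap. The intronic peak held 5 ipsilateral, 0 contralateral and 8 sham tags.

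Seed matches of 80 miRNA families with distinct seeds were searched in the 17 exonic peaks of the 3 genes that lie within 1 annotated exon. Of these, 13 held at least 1 match, for 16 families in all, while 63.3% of the 6202 3'UTR peaks searched in the whole table held at least 1. Families without a reference sequence, miR-124-3p among them, were not searched, so their matches are missing from these counts. A match describes the letters under a peak and does not show that the miRNA was bound there. The miR-23a-3p match (AATGTGA, or ATGTGAA) was the one found in peaks of all 3 genes, and is held by 2.24% of all 3'UTR peaks. The matches of miR-153-3p (CTATGCA or TATGCAA) are held by 1.40%, those of miR-182-5p (TTGCCAA or TGCCAAA) by 1.71%, those of miR-142a-3p (ACACTAC or CACTACA) by 0.887%, those of miR-30a-5p (TGTTTAC or GTTTACA) by 2.34% and those of miR-205-5p (ATGAAGG or TGAAGGA) by 1.42%. The matches of miR-96-5p and miR-182-5p share the letters TGCCAAA. Smaller peaks held matches for miR-148a-3p and miR-142a-3p (Adam10), for miR-29a-3p, miR-494-3p, miR-543-3p and miR-30a-5p (Adam22) and for miR-338-3p, miR-488-3p, miR-499-5p and miR-218-5p (Adam23).

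Most miRNAs with these matches were themselves counted in the AGO complexes, in a table of 1705 miRNAs in which no entry matched miR-219a-5p or miR-543-3p. miR-153-3p, a miRNA enriched in brain, had 897 tags (rank 33) and averaged 26.1 ± 11.8 per 10000 miRNA tags in ipsilateral (SD, n = 5), 23.7 ± 5.50 in contralateral (n = 4) and 20.6 ± 3.90 in sham cortex (n = 4). Its log2 fold change in ipsilateral against sham cortex was 0.17 ± 0.32 (edgeR adjusted p = 0.999). miR-182-5p had 6.57 ± 2.46, 5.87 ± 1.21 and 4.94 ± 1.26, and miR-23a-3p had 7.04 ± 3.72, 6.45 ± 3.38 and 6.92 ± 1.97, with the groups in the same order. For all 3, the group means differed by less than the SD of the ipsilateral libraries.

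miR-30a-5p differed more, with 31.8 ± 12.9 per 10000 miRNA tags in ipsilateral (n = 5), 13.9 ± 7.61 in contralateral (n = 4) and 27.2 ± 17.3 in sham cortex (n = 4), and a log2 fold change of 1.05 ± 0.40 in ipsilateral against contralateral cortex (edgeR adjusted p = 0.999). Other miRNAs with its seed in the RefSeq set used here, which is incomplete, were miR-30c-5p, miR-30e-5p and miR-384-5p. In the same comparison, their log2 fold changes were −0.49 ± 0.33, 0.29 ± 0.31 and 0.08 ± 0.24 in that order (edgeR adjusted p = 0.999 for each). miR-142a-3p, known for its expression in blood cells, had 117 tags in all (rank 1271) and 3.48 ± 1.03, 3.10 ± 1.73 and 2.77 ± 1.27 in ipsilateral, contralateral and sham cortex. miR-205-5p had 88 tags (rank 1486). The last of these lay below the median miRNA of the libraries, at 0.407 times it, and miR-142a-3p at 0.804 times it, while miR-153-3p lay at 6.02 times it. No miRNA was called in any of the 3 comparisons (0% of 1427 in each). At an unadjusted p under 0.05, edgeR had 35, 52 and 43 miRNAs in ipsilateral against sham, ipsilateral against contralateral and contralateral against sham cortex, and DESeq2 called 0 in each, with 13, 27 and 20.

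Genes that work with the 3 members were followed as lists. Of 23 genes for LGI proteins and partners of ADAM22, 15 had exonic tags and 8 were tested; 0 were called higher or lower in each comparison. The medians of their log2 fold changes were 0.24 in ipsilateral against sham, 0.10 in ipsilateral against contralateral and 0.02 in contralateral against sham cortex, beside −0.03, 0.00 and −0.02 for all genes tested. The scaffold gene Dlg2 averaged 37.2 ± 10.5 tags per 10000 in ipsilateral (SD, n = 5), 51.9 ± 8.66 in contralateral (n = 4) and 45.1 ± 7.63 in sham cortex (n = 4). Kcna1, a voltage-gated potassium channel of axons, averaged 34.3 ± 14.1, 33.6 ± 7.76 and 30.2 ± 8.31. Of the 14-3-3 adaptors that bind ADAM22, Ywhaz averaged 20.9 ± 11.8, 10.0 ± 3.88 and 16.2 ± 6.63 and Ywhae 13.7 ± 5.95, 12.7 ± 6.31 and 11.2 ± 2.03. The largest of these differences was that of Ywhaz, with a log2 fold change of 1.21 ± 0.41 in ipsilateral against contralateral cortex (edgeR adjusted p = 0.235).

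Of 18 regulators of ADAM10 (tetraspanins, tissue inhibitors of metalloproteinases and trafficking proteins), 8 had exonic tags and 1, the endocytic adaptor Ap2b1, was tested. Ap2b1 averaged 13.9 ± 9.10 in ipsilateral (n = 5), 7.80 ± 2.59 in contralateral (n = 4) and 9.35 ± 3.65 in sham cortex (n = 4), and was not called in any comparison (0 of 1). Rab14 had 61 tags, Cap2 37 and Tspan5 27, too few for a test. Of 30 substrates of ADAM10 and secretase genes, 16 had tags and 7 were tested, with 0 called higher or lower in each comparison. Their medians were 0.24, 0.45 and −0.17 in ipsilateral against sham, ipsilateral against contralateral and contralateral against sham cortex. App, the amyloid precursor protein, averaged 20.4 ± 9.30, 15.4 ± 2.25 and 16.5 ± 2.53 in ipsilateral, contralateral and sham cortex, and the membrane chemokine Cx3cl1 averaged 13.5 ± 6.78, 8.54 ± 3.00 and 10.2 ± 3.51. The adhesion genes Cadm1 and Nrcam averaged 11.6 ± 4.41 and 11.9 ± 5.72 in ipsilateral, 13.3 ± 3.68 and 10.9 ± 2.43 in contralateral and 8.24 ± 2.00 and 11.8 ± 6.31 in sham cortex. Among 25 other ADAM and ADAMTS genes, 3 had any exonic tags: Adam9 with 30, Adam11 with 8 and Adam19 with 6, against 638 for Adam10, Adam22 and Adam23 together.

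Correlations between the 3 members over the 13 libraries were weak or negative. On the scale log2(tags per 10000 exonic tags + 0.5), Pearson's r was 0.06 between Adam10 and Adam22, −0.37 between Adam10 and Adam23 and 0.18 between Adam22 and Adam23. Among 422 genes with at least 100 exonic tags, those most like Adam22 were Gpm6b (r = 0.72), Gnaq (0.72) and Fut9 (0.68). For Adam23 they were Plxna2 (0.91), Taok1 (0.84) and Klf9 (0.82), and for Adam10 Lmbrd2 (0.90), Mycbp2 (0.88) and Snn (0.82). Spearman's rho was 0.46 to 0.62 for the 3 genes most like Adam23 and 0.39 to 0.52 for those most like Adam10, well under their r. The points are libraries that share a day of surgery and differ in depth, so these values are descriptions.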

How the data were processed

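The deposited tables hold counts, whole numbers of AGO tags per peak and per mature miRNA, not normalized, in 13 libraries. Per the submitters' processing notes, Novoalign and the mm10 build were used. No source used here names the peak caller, says whether duplicate tags were collapsed or whether counting used the strand. The authors' peak height, a deposited score, is quoted once. Tags that are PCR copies are not independent molecules, so limits cover counting error only. From 18285 peaks, 1 without a position (44 tags) was left out. Peaks are 80 bases wide, and their starts were read as counted from 0. The lowest total was 3 tags for a peak and 50 for a miRNA. Total peak tags were 3780 to 71027 and miRNA tags 3851 to 61708 per library.

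Tags were summed over the exonic peaks of a gene and tested with edgeR 4.0.16 (quasi-likelihood, TMM factors, filterByExpr, 13 libraries in 1 fit, two-sided, Benjamini-Hochberg over all 414 genes tested, R 4.3.3), and likewise for 238 single peaks and 1427 miRNAs. Library sizes were exonic tags for genes, tags of all peaks, exonic or not, for single peaks, and all miRNA tags for miRNAs. Shares were compared by exact permutation. The edgeR script was checked on simulated data. For gene sums the simulated spread was smaller than that of these libraries, so the check does not show how many changes could be found here. Alternatives were DESeq2 1.42.0, other normalizations and filters, other sets of peaks, each library left out and the day of surgery as a block. The pairing comes from the series' design text, which ties replicate sets to days of surgery: deviations of same-numbered libraries correlated at 0.0539 to 0.537 (median 0.209, 10 of 11 pairs over 0.1). For libraries of different number the median was −0.0818, with 11 of 45 pairs over 0.1. The main edgeR fit and the permutation of shares left the day of surgery out. The members, lists and tests were chosen with earlier results of these data known. Named genes are the members, the 4 genes of each list with the most tags, the genes called and the 3 genes most correlated with each member. Of 94 miRNA families listed, 80 had a sequence in the RefSeq table used here. The 14 without one, miR-124-3p among them, were not searched. Whether p-values cover separate animals is not given beyond the day of surgery.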

Additional observations from a re-analysis of the deposited data

Results flagged for a closer look

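Among 21 sets of values examined, 2 had 1 library far from the rest of its group, where chance alone would give about 1 in 20. The exonic share of peak tags was 28.9% in ipsilateral replicate 1, against 60.8% to 68.6% in the other 4 ipsilateral libraries. This library took part in each value above as a share of its own exonic tags, and Adam22 and Adam23 were at 15.6 and 19.9 tags per 10000 in it. The 2 Adam22 peaks with the most tags had 5.07 tags per 10000 in sham replicate 3, against 2.23 to 2.60 in the other 3 sham libraries, and the value rests on 4 tags.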

How the results depend on the processing

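No member was called in any of 195 alternative fits (lowest adjusted p 0.266), of which 168 kept the direction and 27 turned it; of 114 alternative share differences, 90 kept direction and side of the threshold, 20 turned and 4 passed it. Genes called in ipsilateral against sham cortex (2) numbered 1 with no TMM factors, with DESeq2 size factors, with only the compared groups or with 3'UTR peaks, 0 with all peaks or with 1 peak kept of each overlapping set (added after seeing the data), 7 in DESeq2, 5 without the 3 libraries of replicate 1, and 0 to 13 when each library was left out. In ipsilateral against contralateral cortex (0) they numbered 2 with no filter, 6 in DESeq2, 9 without replicate 1 and 0 to 17 when each library was left out; 13 and 17 both came without ipsilateral replicate 1. The replicate block, pairing by day of surgery, called 5 genes in each of these and changed no member's call. It gave Adam10 −0.10 in ipsilateral against sham, 0.022 in ipsilateral against contralateral and −0.12 in contralateral against sham cortex (log2), and Adam23 −0.0044 in ipsilateral against contralateral. Blocked shares turned to −1.19 for Adam22 in ipsilateral against contralateral and −0.593 for Adam10 in contralateral against sham cortex.

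With all peaks, Adam10 gave −0.13, 0.026 and −0.16 (log2) in ipsilateral against sham, ipsilateral against contralateral and contralateral against sham cortex, and leaving out libraries gave −0.14 to 0.44, −0.45 to 0.15 and −0.051 to 0.56. For Adam22 they gave 0.65 to 1.15, 0.11 to 0.43 and 0.40 to 0.89 in that order. Adam23 in ipsilateral against contralateral cortex gave −0.040 with no TMM factors, −0.032 with no filter, −0.27 without replicate 1, −0.11 with 3'UTR peaks and −0.20 to 0.18 leaving out libraries. Shares of Adam22 in ipsilateral against contralateral cortex were −0.317 over all peak tags and −1.69 without replicate 1, those of Adam23 −1.50 over 3'UTR tags and −1.10 without replicate 1; Adam10 in contralateral against sham cortex was at −0.241 without replicate 1. Adam23 in contralateral against sham cortex reached −8.92 over 3'UTR tags. Leaving out libraries, share differences ran from −1.66 to 0.449, 3.54 to 6.97 and −8.68 to −2.09 for Adam10, Adam22 and Adam23 in ipsilateral against sham, −1.19 to 2.24 for Adam22 and −3.05 to 3.55 for Adam23 in ipsilateral against contralateral, and −0.510 to 2.62 for Adam10 and −7.20 to −3.78 for Adam23 in contralateral against sham cortex. The cause was not tested. Adam10 failed the filter, and has no value, with only the compared groups, with 3'UTR peaks, and without replicate 1 or ipsilateral replicate 1. Depth limits all 3 genes: ipsilateral replicates 4 and 5 hold 0 to 8 tags of each.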
